A study of Mus musculus with 3 samples.

Results

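The genes of this account are 43 chromatin regulators of the mouse, taken by gene symbol from the deposited expression tables. They cover DNA methylation (7 genes), Polycomb repressive complex 2 (PRC2, 4 genes), Polycomb repressive complex 1 (PRC1, 7 genes), histone demethylases (3 genes), histone deacetylases (8 genes), the NuRD complex (11 genes) and SWI/SNF remodelling (3 genes). All 43 symbols matched exactly 1 of the 54532 genes in the tables. The rule rests on symbols and not on measured values, but the genes were chosen with earlier results of these data known. The study tested transcription factor cocktails that turn myocardial infarction-derived cardiac fibroblasts (MICFs) into induced cardiomyocyte-like cells (iCMs), and RNA was sequenced from 3 libraries, 1 per condition. All cells came from Myh6-mCherry mice, which carry a red reporter under the cardiomyocyte promoter Myh6, operated at 8 weeks of age, with hearts taken 5 days after infarction. The MICFs received no virus and stayed in culture for 4 weeks. The GMTMS-iCMs received Gata4, Mef2c, Tbx5, Myocd and Sall4 by virus, with doxycycline in the medium, and the GMTMM cocktail has Mesp1 in place of Sall4. After 4 weeks, transduced cells were sorted for the Myh6 reporter, and 5 sorted samples were mixed into each iCM library. The sort was meant to keep cells that had switched on that promoter, and the MICFs were not sorted in this way. Markers of other cell types were still found in the sorted libraries, as given below. With 1 library each, the conditions cannot be compared against replicate spread, and no p-value is given.

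DNA methyltransferases write, and TET dioxygenases oxidize, methyl groups on cytosines of CpG dinucleotides. PRC2 places the H3K27 methyl mark with EZH1 or EZH2, PRC1 reads that mark through its CBX subunits and ubiquitinates histone H2A through RING1 or RNF2, and KDM6 demethylases remove the mark. NuRD joins a CHD remodelling ATPase to the deacetylases HDAC1 and HDAC2, and SALL4, a delivered factor of GMTMS, is known to bind NuRD. BMI1, a PRC1 subunit, is known as a barrier to the conversion of fibroblasts into cardiomyocyte-like cells.

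The library totals lay between 10624118 and 11904484 counts. The delivered factors check the labels: no count of Sall4 was found in MICFs (0 counts), against 1190 in GMTMS-iCMs and 1060 in the third library, whose label is GMTMM, and Mesp1 had 0 in all 3. Since this goes against its label, that library is called the library labelled GMTMM throughout. The libraries also differed in markers of other cells. Where 3 values follow each other below, they are those of MICFs, of GMTMS-iCMs and, last, of the library labelled GMTMM. The summed FPKM of 10 endothelial markers was 498, 13.8 and 372. That of 10 fibroblast markers was 2323, 314 and 4094, that of 12 macrophage markers was 10382, 21408 and 10085, and that of 8 cardiomyocyte markers was 1.61, 684 and 244, with Myh6, Ryr2 and Actn2 at 0 in MICFs. None of the endothelial, fibroblast or macrophage markers was at 0 in any library, and in a bulk sample fewer cells of a type and less RNA per cell cannot be told apart. The Y-linked Kdm5d and Uty had 0 counts in MICFs and between 157 and 184 in the other libraries. The X-linked Xist had 45.9, 31.7 and 7.72 FPKM, and the labels do not give the sex of the animals. The libraries thus differed in sex-linked genes, and this difference cannot be told apart from that of the cocktails.

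At least 1 count was found for 43, 43 and 42 members. Together they took 0.330%, 0.343% and 0.307% of all counts, so these genes as a whole held a like share of each library. By mean FPKM, a level per length of transcript and per library size, Kdm6b (58.0), Chd4 (52.7), Mbd2 (34.6) and Mta2 (33.2) were the most abundant members. Cbx8 (mean 0.801 FPKM), Dnmt3b (0.506), Cbx2 (0.449), Dnmt3l (0.410), Tet1 (0.0488) and Hdac11 (0.972) had a mean below 1 FPKM. These 6 are described by their values, and all counts of members below are over the other 37.

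**Figure D1:**
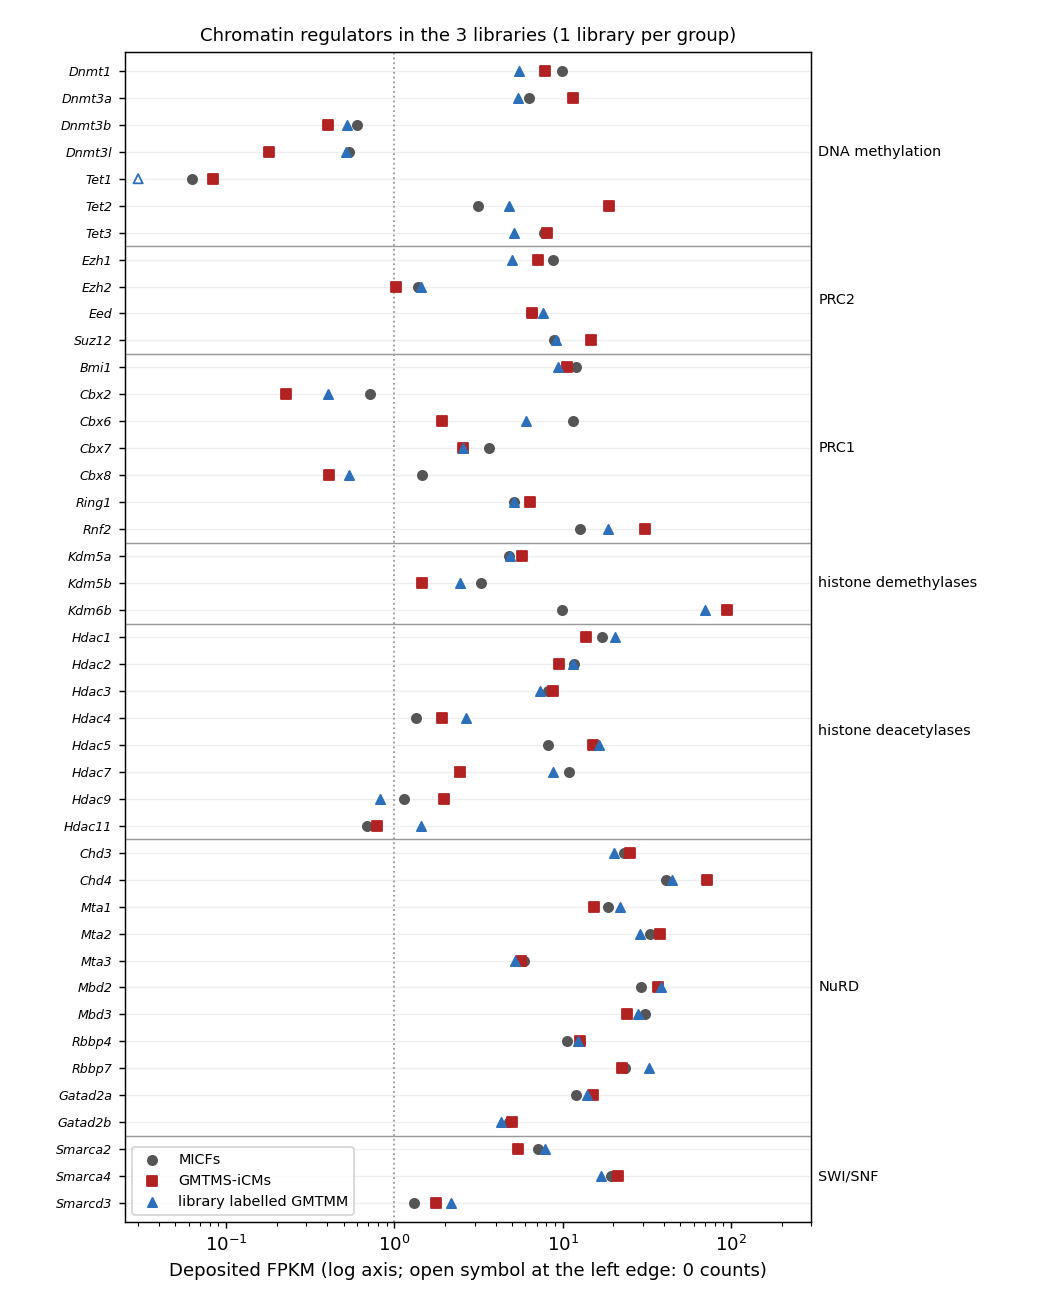
Deposited FPKM (horizontal log axis) of the 43 members (rows, by group) in MICFs (grey circles), GMTMS-iCMs (red squares) and the library labelled GMTMM (blue triangles), 1 library each. The symbols of most genes lie close together, while Kdm6b stands at 9.94 in MICFs against 94.3 and 69.8, and Tet2, Cbx6 and Hdac7 have GMTMS-iCMs apart from both other libraries. An open symbol marks 0 counts.

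Members were compared on the log2 scale of FPKM that were quantile-normalized over the 3 libraries, with 1 added, and a difference over 1 was taken as higher or lower. Because adding 1 shrinks the differences of genes of a few FPKM, members were also counted by a ratio of deposited FPKM of at least 1.5-fold. Intervals beside such folds are exact 95% intervals on the counts and cover counting error only. In GMTMS-iCMs against MICFs, 2 of 37 members were higher by over 1, Kdm6b and Tet2, against 11.5% of the 12406 genes with a mean of at least 1 FPKM. Another 2 were lower by over 1, Cbx6 and Hdac7, against 10.5% of those genes. By 1.5-fold, 8 members were higher, against 25.2% of all genes, and 3 were lower, against 23.9%. The 8 were Kdm6b, Tet2, Rnf2, Hdac5, Dnmt3a, Chd4, Hdac9 and Suz12, and the 3 were Cbx6, Hdac7 and Kdm5b. Their median difference was -0.02, and that of all genes was -0.05.

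In the library labelled GMTMM against MICFs, 1 member, Kdm6b, was higher by over 1, against 8.07% of all genes, and 0 were lower, against 4.69%. Cbx6 lay just inside that limit, with a difference of -0.97. By 1.5-fold, 5 members were higher (Kdm6b, Hdac5, Hdac4, Smarcd3 and Tet2), against 22.1%, and 3 were lower (Cbx6, Dnmt1 and Ezh1), against 17.7%. The median difference of the members was -0.14, and that of all genes was -0.09. Between the transduced libraries, 1 member, Tet2, was higher in GMTMS-iCMs by over 1, against 8.29%, and 2, Hdac7 and Cbx6, were lower, against 11.1%. By 1.5-fold, 7 were higher (Tet2, Hdac9, Dnmt3a, Rnf2, Chd4, Suz12 and Tet3), against 23.1%, and 3 were lower (Hdac7, Cbx6 and Kdm5b), against 21.6%. The median difference there was 0.18 for the members and 0.10 for all genes. In all 12 of these counts the share of members was below that of all genes. Each library enters more than 1 comparison, and both limits count the same 37 members, so these counts are not independent of each other. Some shares lay near those of all genes, such as 21.6% against 25.2% for members higher by 1.5-fold in GMTMS-iCMs than in MICFs. With so few members past a limit, the 12 counts say little about the members as a set.

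**Figure D2:**
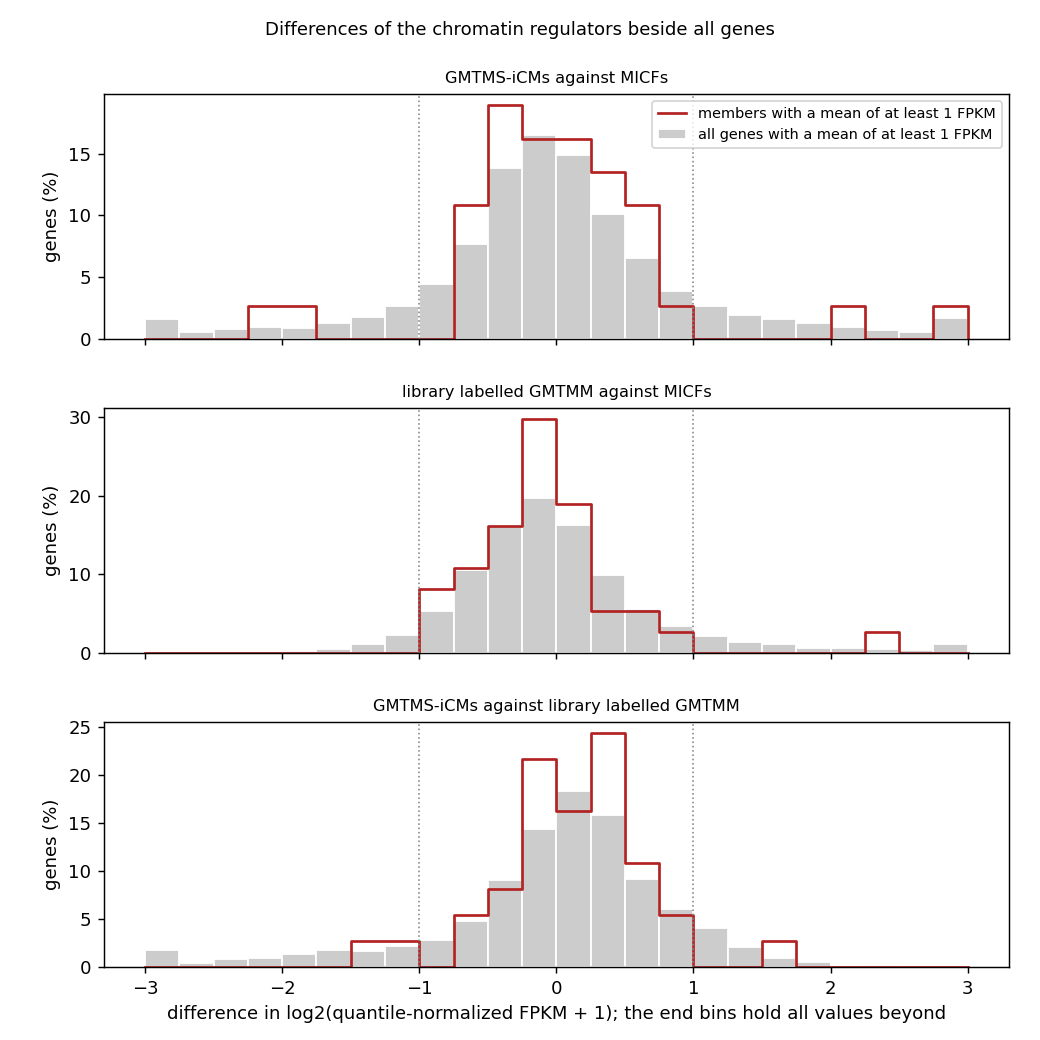
Share of genes (vertical, %) by their difference in log2(quantile-normalized FPKM + 1) (horizontal, bins of equal width) for all genes (grey) and for the 37 members (red line) with a mean of at least 1 FPKM, in the 3 comparisons. The members gather near 0, and those past the dotted lines at -1 and 1 number 4, 1 and 3, from the top.

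The size of small differences depended on the scaling. The deposited FPKM use library sizes made with DESeq2 size factors, and dividing by library totals instead lowers every log2 ratio of GMTMS-iCMs to MICFs by 0.47, every ratio of the library labelled GMTMM to MICFs by 0.31 and every ratio between the transduced libraries by 0.17. Of the 37 members, 9 were positive and 13 negative under every scaling tried in GMTMS-iCMs against MICFs, and 15 had a sign that changed. With the library labelled GMTMM set against MICFs, the same counts were 8, 18 and 11. Members whose sign changed are given below by their values without a direction.

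**Figure D3:**
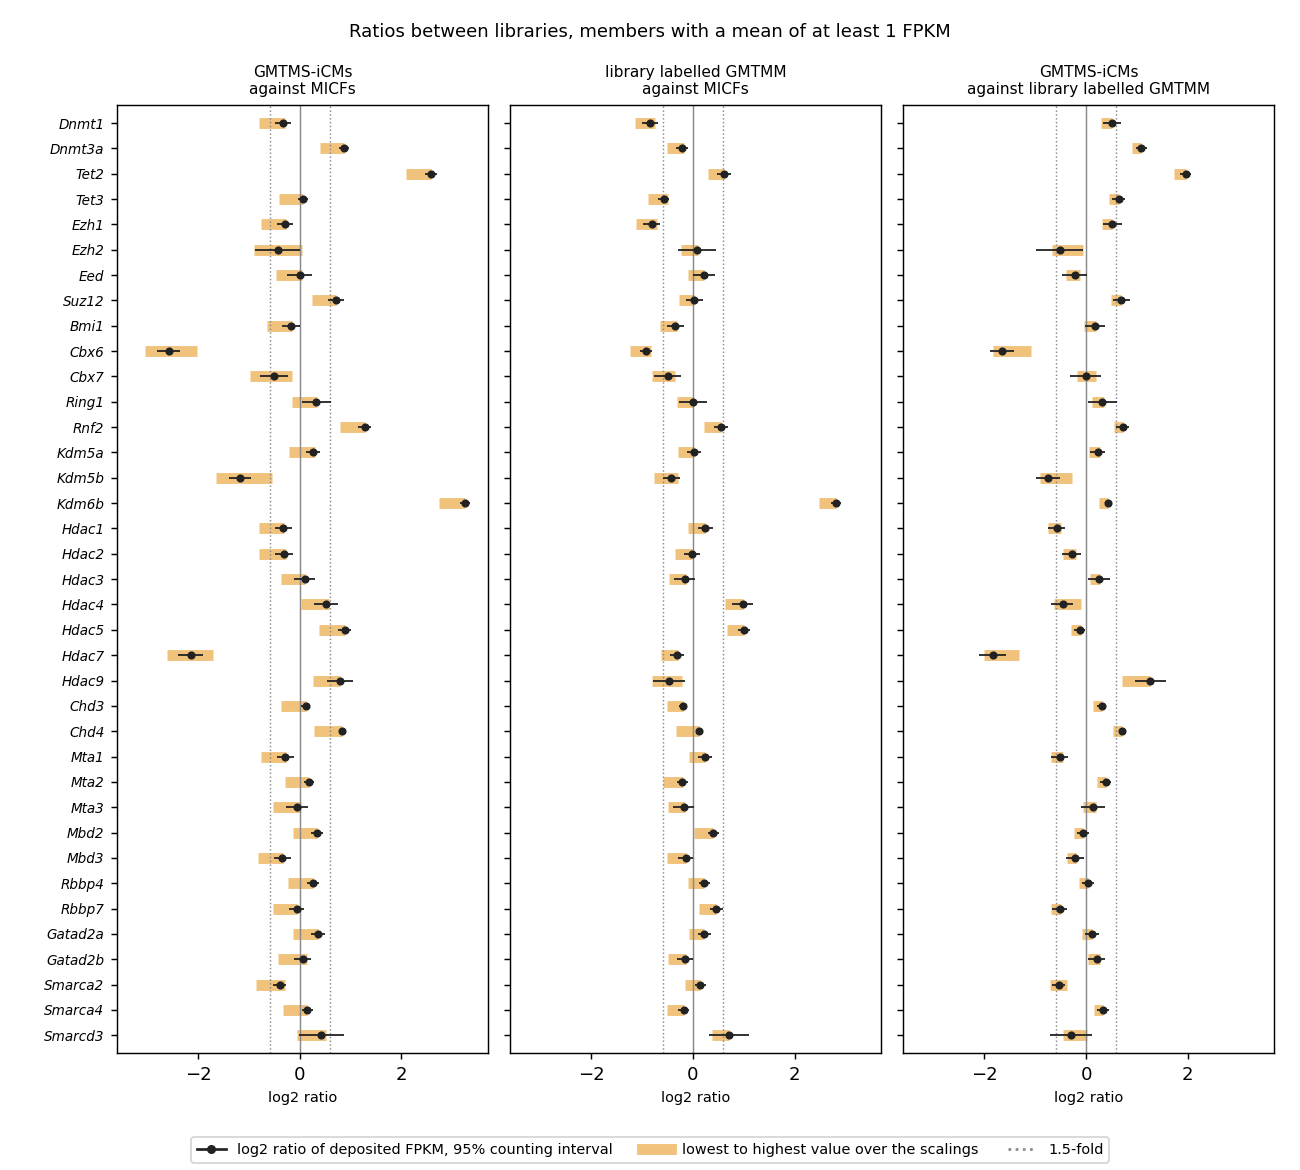
The log2 ratio of deposited FPKM (points, with 95% counting intervals as black lines) and the lowest to highest value over all scalings (orange bars) for the 37 members in the 3 comparisons. Kdm6b, Tet2, Cbx6 and Hdac7 keep their side of 0 by a wide margin in the left panel, while the bars of most NuRD and SWI/SNF genes cross 0 there.

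Kdm6b (ENSMUSG00000018476, chromosome 11 from 69398508 to 69413675), the H3K27 demethylase also called JMJD3, had the largest difference of all members in GMTMS-iCMs against MICFs. It had 995 counts (9.94 FPKM) in MICFs, 6092 (94.3 FPKM) in GMTMS-iCMs and 5669 (69.8 FPKM) in the last library. Both transduced libraries were high and the MICFs low. It was 9.49-fold higher in GMTMS-iCMs (8.87 to 10.2), a difference of 2.85 on the log2 scale, and 7.02-fold higher in the library labelled GMTMM (6.56 to 7.52). Between the transduced libraries the ratio was 1.35 (1.30 to 1.40). Its X-linked paralogue Kdm6a, which is not a member, had 769, 552 and 372 counts, so that Kdm6b made up 60.9%, 93.0% and 94.8% of the summed FPKM of the pair. Such a share within a library is free of the scaling, and the ratio of Kdm6b to Kdm6a was 8.53 times as high in GMTMS-iCMs as in MICFs (7.49 to 9.72). The libraries differed in sex-linked genes, and the part of sex in the level of Kdm6a was not tested. The antisense neighbour Kdm6bos covers 4.11% of the exon bases of Kdm6b. KDM6B is also known as an inducible gene of stimulated macrophages. The macrophage markers summed to 10382, 21408 and 10085 FPKM, with 12 of 12 higher by 1.5-fold in GMTMS-iCMs than in MICFs. In the library labelled GMTMM against MICFs, 1 of the 12 was higher by 1.5-fold and 0 were lower. By the limit of 1 after quantile normalization, 3 were higher and 0 lower in GMTMS-iCMs against MICFs. In the library labelled GMTMM, 1 was higher and 2 were lower by that limit. Such sums do not show whether macrophages were stimulated, and their part in the level of Kdm6b was not tested.

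The H3K4 demethylases went differently from Kdm6b. Kdm5b (chromosome 1 from 134560171 to 134635285) had 783, 224 and 473 counts, or 3.29, 1.46 and 2.45 FPKM. It was 2.26-fold lower in GMTMS-iCMs than in MICFs (1.94 to 2.63) and 1.68-fold lower than in the library labelled GMTMM (1.43 to 1.98), with a negative sign under every scaling. Kdm5a, its close relative, had 4.81, 5.74 and 4.90 FPKM, and its ratio between GMTMS-iCMs and MICFs, 1.19, changed sides of 1 with the scaling. A list of 12 other histone demethylases was written from general knowledge, with earlier results of these data known. In GMTMS-iCMs 1 was higher by over 1 (Kdm7a, 1.21), against 11.5% of all genes, and 0 were lower, against 10.5%. None was past 1 in the library labelled GMTMM, against 8.07% of all genes higher and 4.69% lower.

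Among the DNA methylation genes, Tet2 (ENSMUSG00000040943, chromosome 3 from 133463679 to 133545139) had the largest difference. This dioxygenase had 763 counts (3.14 FPKM) in MICFs, 2937 (18.7 FPKM) in GMTMS-iCMs and 946 (4.80 FPKM) in the last library. GMTMS-iCMs alone were high. The fold was 5.96 against MICFs (5.51 to 6.47), a log2 difference of 2.24, and 3.90 against the library labelled GMTMM (3.63 to 4.21), a difference of 1.73. The library labelled GMTMM was 1.53-fold above MICFs (1.39 to 1.68). Tet3 had 7.70, 8.04 and 5.16 FPKM, and its level in the library labelled GMTMM was 1.49-fold below that of MICFs (1.38 to 1.61). Tet1, the third member of the family, had 14, 12 and 0 counts, and a count of 0 allows up to 3 counts, or 0.252 CPM. Tet2 therefore took 28.8%, 69.8% and 48.2% of the summed TET FPKM, and Tet3 70.6%, 29.9% and 51.8%. The ratio of Tet2 to Tet3 was 5.71 times as high in GMTMS-iCMs as in MICFs (5.12 to 6.36). TET2 is expressed in blood and immune cells as well, and the macrophage markers named above were highest in GMTMS-iCMs too. Their part was not tested.

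The methyltransferases differed among themselves. Dnmt3a, a de novo methyltransferase, had 1514, 1788 and 1059 counts, or 6.32, 11.6 and 5.45 FPKM, and was 1.83-fold higher in GMTMS-iCMs than in MICFs (1.71 to 1.96) and 2.12-fold higher than in the library labelled GMTMM (1.97 to 2.29). Dnmt1, the maintenance methyltransferase of dividing cells, had 1050, 539 and 476 counts, or 9.89, 7.87 and 5.52 FPKM. It was 1.26-fold lower in GMTMS-iCMs (1.13 to 1.40) and 1.79-fold lower in the library labelled GMTMM (1.61 to 2.00) than in MICFs, negative under every scaling. In MICFs Dnmt1 was the more abundant of these 2 genes, in GMTMS-iCMs Dnmt3a was, and the ratio of Dnmt3a to Dnmt1 was 2.30 times as high in GMTMS-iCMs (2.03 to 2.61). Dnmt3b had 44, 19 and 31 counts, and Dnmt3c holds 11.5% of its 50-base words, and its ratio between GMTMS-iCMs and MICFs had an interval that includes 1 (0.369 to 1.17). Dnmt3l, which has no catalytic activity of its own, had 23, 5 and 18 counts. Of 10 other DNA methylation genes, 1 was past 1 in each direction in GMTMS-iCMs against MICFs, near the 11.5% higher and 10.5% lower of all genes. The higher was Gadd45b, a stress-induced gene tied to DNA demethylation, with 42.4, 418 and 386 FPKM. The lower was Uhrf1, the partner of DNMT1 at replicated DNA, with 151, 22 and 114 counts and a 4.43-fold lower level. Of 15 proliferation genes with a mean of at least 1 FPKM, 12 were lower and 2 higher by 1.5-fold in the same comparison. The shares of all genes were 23.9% and 25.2%. In the library labelled GMTMM against MICFs, 1 of the 15 was lower and 2 were higher by 1.5-fold, against 17.7% and 22.1% of all genes. The part of proliferation in the values of Dnmt1 and Uhrf1 was not tested.

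CpG dinucleotides are the substrate of these enzymes and the feature on which Polycomb complexes gather, so the windows of 250 bases before the start of transcription were compared for CpG content, with sequences from RefSeq on GRCm38.p6. Of the 43 members, 35 had such a window. The median was 22 CpG in the 30 windows of members with a mean of at least 1 FPKM and 16 in the 8834 windows of all genes at that level, which is a description of the chosen genes. Among all members with a window, the count ran from 0 in Hdac9 to 51 in Tet2. The windows of the members that set GMTMS-iCMs apart from both other libraries are shown 5′ to 3′ on the strand of the gene, each CpG in capitals.
Tet2, chr3:133544391-133544640, minus strand: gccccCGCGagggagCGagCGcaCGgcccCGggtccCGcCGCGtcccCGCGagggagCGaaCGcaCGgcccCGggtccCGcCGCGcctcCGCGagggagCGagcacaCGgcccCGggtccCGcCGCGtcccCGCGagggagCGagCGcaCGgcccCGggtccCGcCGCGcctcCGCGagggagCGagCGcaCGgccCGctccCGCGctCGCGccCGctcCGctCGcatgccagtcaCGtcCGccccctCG
Cbx6, chr15:79834334-79834583, minus strand: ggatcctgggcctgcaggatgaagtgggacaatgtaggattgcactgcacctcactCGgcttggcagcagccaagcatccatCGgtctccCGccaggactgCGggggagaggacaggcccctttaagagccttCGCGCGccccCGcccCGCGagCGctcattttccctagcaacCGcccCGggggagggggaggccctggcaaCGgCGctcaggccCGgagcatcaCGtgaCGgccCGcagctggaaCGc
Hdac7, chr15:97844503-97844752, minus strand: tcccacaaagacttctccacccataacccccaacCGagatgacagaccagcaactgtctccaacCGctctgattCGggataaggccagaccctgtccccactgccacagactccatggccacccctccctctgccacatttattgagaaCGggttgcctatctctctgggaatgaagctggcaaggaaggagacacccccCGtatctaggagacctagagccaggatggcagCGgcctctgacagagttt
Tet2 had 51 CpG and 83.6% G or C, a content of CpG that 0.158% of windows of genes with a mean of at least 1 FPKM reach. Cbx6 had 20 and 68.0%. Hdac7 had 6 and 56.4%, and 17.1% of those windows hold 6 or fewer. The 2 genes that were lower therefore differed from each other in this respect. The RefSeq start that each window runs up to lies 749 bases for Tet2 and 355 bases for Cbx6 inside the 5′ end of the gene in the deposited table, and RefSeq lists further starts for Hdac7. The letters AGATAA, bound by GATA factors, were found on either strand in 1 of 35 member windows (Chd4) against 10.2% of 27025 gene windows, and GGTGTGA, part of the T-box site, in 0 against 3.31%. A MEF2 site was found in 1 (Hdac5) against 0.518%, and a CArG box in 0 against 1.40%. Such letters are a description of these windows and not sites of binding.

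None of the 4 PRC2 members differed by over 1 in any comparison, and at the shares of all genes given above a count over 4 genes says little. Ezh1, the catalytic subunit of resting cells, had 938, 492 and 433 counts, or 8.76, 7.12 and 4.98 FPKM. Ezh2, the catalytic subunit of dividing cells, had 132, 63 and 113 counts, or 1.37, 1.02 and 1.45 FPKM. Ezh1 thus made up 86.4%, 87.5% and 77.5% of the pair, and Ezh2 was the minor form in every library. The ratio of Ezh1 to Ezh2 differed between GMTMS-iCMs and MICFs by 1.10 times (0.791 to 1.54), which was not detectable at this depth. In the library labelled GMTMM Ezh1 was 1.76-fold lower than in MICFs (1.57 to 1.98), while Ezh2 had a ratio of 1.05 (0.813 to 1.37). Suz12, the subunit that holds the complex together, had 8.94, 14.7 and 9.09 FPKM and was 1.65-fold higher in GMTMS-iCMs than in MICFs (1.48 to 1.84). Eed, which binds the mark that PRC2 makes, had 6.55, 6.55 and 7.65 FPKM, with a ratio of 1.00 between GMTMS-iCMs and MICFs (0.844 to 1.18). Of 5 accessory PRC2 genes with a mean of at least 1 FPKM, 3 were higher by 1.5-fold in GMTMS-iCMs, against 25.2% of all genes. None was lower, against 23.9%. The same counts held in the library labelled GMTMM, where the shares of all genes were 22.1% and 17.7%. The 3 genes were not the same, however. Mtf2, with 3.56, 5.65 and 4.34 FPKM, was among them only in GMTMS-iCMs. Epop, with 0.511, 0.698 and 1.89 FPKM, was among them only in the library labelled GMTMM. The mean of Epop, 1.03 FPKM, lay just above the limit of 1 FPKM. The leading gene in GMTMS-iCMs was Jarid2, which brings PRC2 to its targets. It had 3.01, 6.72 and 6.57 FPKM and a difference of 1.02 between GMTMS-iCMs and MICFs.

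Within PRC1, Cbx6 (ENSMUSG00000089715, chromosome 15 from 79823896 to 79834688) had the lowest difference of all members. Its product is a chromodomain subunit. It had 1765 counts (11.6 FPKM) in MICFs, 190 (1.93 FPKM) in GMTMS-iCMs and 754 (6.08 FPKM) in the last library. MICFs were highest, GMTMS-iCMs lowest and the library labelled GMTMM between them. It was 6.0-fold lower in GMTMS-iCMs (5.16 to 7.00), a difference of -2.12, and 1.90-fold lower in the library labelled GMTMM (1.74 to 2.07). Its neighbour Cbx7 (chromosome 15 from 79915807 to 79971119) had 3.63, 2.56 and 2.57 FPKM and was 1.42-fold lower in GMTMS-iCMs (1.17 to 1.73) and 1.41-fold lower in the library labelled GMTMM (1.18 to 1.69). Cbx2 had 44, 9 and 20 counts and Cbx8 77, 14 and 23 counts, and these neighbours on chromosome 11 were at most 1.46 FPKM in any library. The counts of Cbx8 were 3.55-fold lower in GMTMS-iCMs (1.99 to 6.80) and 2.72-fold lower in the library labelled GMTMM (1.69 to 4.54). Of the summed FPKM of these 4 CBX members, Cbx6 held 66.6%, 37.6% and 63.4%, and Cbx7 held 20.9%, 49.9% and 26.8%. The ratio of Cbx6 to Cbx7 was 4.22 times lower in GMTMS-iCMs than in MICFs (3.28 to 5.41) and 1.35 times lower in the library labelled GMTMM (1.10 to 1.64). The fibroblast and endothelial markers were both lowest in GMTMS-iCMs as well, with 10 of 10 in each list lower than in MICFs by over 1. In the library labelled GMTMM the fibroblast sum was 4094, above the 2323 of MICFs. The endothelial sum there was 372, below the 498 of MICFs, with 4 of 10 markers lower by over 1. Cbx6 was 1.90-fold lower in that library. The part of these cells in the level of Cbx6 was not tested.

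Of the catalytic RING subunits of PRC1, Rnf2 was higher in both transduced libraries. Rnf2 (also called RING1B, chromosome 1 from 151458004 to 151500955) had 755, 1178 and 900 counts, or 12.7, 30.7 and 18.7 FPKM. It was 2.42-fold higher in GMTMS-iCMs (2.20 to 2.65) and 1.47-fold higher in the library labelled GMTMM (1.33 to 1.62) than in MICFs, positive under every scaling. Its difference of 0.96 in GMTMS-iCMs lay just inside the limit of 1. Ring1 had 5.14, 6.44 and 5.15 FPKM, and Rnf2 made up 71.2%, 82.7% and 78.4% of the pair. Bmi1 (ENSMUSG00000026739, chromosome 2 from 18677018 to 18686629), the subunit that stimulates the RING enzyme, had 685, 392 and 438 counts, or 11.98, 10.6 and 9.44 FPKM. All 3 values lay close together. Bmi1 was 1.13-fold lower in GMTMS-iCMs, with an interval that includes equality (0.995 to 1.28), and 1.27-fold lower in the library labelled GMTMM (1.12 to 1.43). Its sign was negative under every scaling in both comparisons, and the gene model Gm5946 holds 18.5% of its 50-base words, so its counts are uncertain to that extent. Of 14 other PRC1 genes, 2 were higher by over 1 in GMTMS-iCMs and 0 lower, against 11.5% and 10.5% of all genes. Bcor had 4.08, 34.3 and 17.8 FPKM, 8.40-fold higher in GMTMS-iCMs, and Pcgf5 had 1.01, 3.46 and 2.77 FPKM, a difference of 1.27. By 1.5-fold 3 of the 14 were higher and 3 lower, near the 25.2% and 23.9% of all genes. The 3 lower were Pcgf1 (1.83-fold), Pcgf2 (1.69-fold) and Pcgf6 (1.57-fold).

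Among the histone deacetylases, the largest difference was that of Hdac7, a class IIa enzyme. Class IIa enzymes act in muscle and vessels as signal-dependent repressors of MEF2, a family that includes the delivered Mef2c. Hdac7 (ENSMUSG00000022475, chromosome 15 from 97792664 to 97844502) had 1061 counts (10.9 FPKM) in MICFs, 154 (2.45 FPKM) in GMTMS-iCMs and 692 (8.77 FPKM) in the last library. GMTMS-iCMs alone were low. It was 4.45-fold lower in GMTMS-iCMs than in MICFs (3.75 to 5.30), a difference of -1.78, and 3.57-fold lower than in the library labelled GMTMM (3.00 to 4.28), a difference of -1.38. HDAC7 is known for its role in endothelial cells. The 10 endothelial markers summed to 498, 13.8 and 372 FPKM, with all 10 lower by over 1 in GMTMS-iCMs, among them Cdh5 with 204, 4.02 and 147 FPKM and Pecam1 with 80.8, 1.85 and 67.8 FPKM. The order of the libraries was the same as for Hdac7, and the part of endothelial cells in its level was not tested.

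The other class IIa enzymes were higher in GMTMS-iCMs than in MICFs under every scaling. Hdac5 had 1037, 1231 and 1690 counts, or 8.21, 15.1 and 16.5 FPKM, and was 1.84-fold higher in GMTMS-iCMs (1.69 to 2.00) and 2.01-fold higher in the library labelled GMTMM (1.86 to 2.17) than in MICFs. Hdac4 had 1.35, 1.92 and 2.65 FPKM, 1.43-fold (1.21 to 1.68) and 1.97-fold (1.70 to 2.28) above MICFs. Hdac4 and Hdac5 were 1.38-fold (1.19 to 1.60) and 1.09-fold (1.01 to 1.18) lower in GMTMS-iCMs than in the library labelled GMTMM. The counts of Hdac4 are uncertain, since the antisense gene Gm26720 covers 22.4% of its exon bases. Hdac9 had 240, 269 and 141 counts, or 1.14, 1.98 and 0.823 FPKM, and was 1.74-fold higher in GMTMS-iCMs (1.45 to 2.08) and 1.38-fold lower in the library labelled GMTMM (1.12 to 1.71). Hdac7 was thus the leading class IIa gene in MICFs with 50.5% of the summed level, and Hdac5 led in GMTMS-iCMs with 70.4% and in the library labelled GMTMM with 57.4%. The ratio of Hdac5 to Hdac7 was 8.17 times as high in GMTMS-iCMs as in MICFs (6.76 to 9.93) and 2.50 times as high in the library labelled GMTMM (2.21 to 2.83). The class I enzymes stayed closer. Hdac1 had 17.2, 13.7 and 20.4 FPKM, Hdac2 11.7, 9.48 and 11.6, and Hdac3 8.18, 8.74 and 7.31. Hdac1 and Hdac2 were 1.26-fold (1.12 to 1.41) and 1.24-fold (1.10 to 1.40) lower in GMTMS-iCMs than in MICFs, and a change in their ratio to each other was not detectable at this depth (0.986, 0.831 to 1.17). The gene model Gm10093 holds 58.7% of the words of Hdac1, which makes its counts uncertain. Hdac11, the class IV enzyme, had 38, 28 and 65 counts, with a level in the library labelled GMTMM 2.11-fold above that of MICFs (1.39 to 3.23), and other genes cover 17.9% of its exon bases. Of 8 other deacetylases with a mean of at least 1 FPKM, 1 was higher by over 1 in GMTMS-iCMs, against 11.5% of all genes. That gene was Sirt1, with 3.75, 10.4 and 6.13 FPKM.

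**Figure D4:**
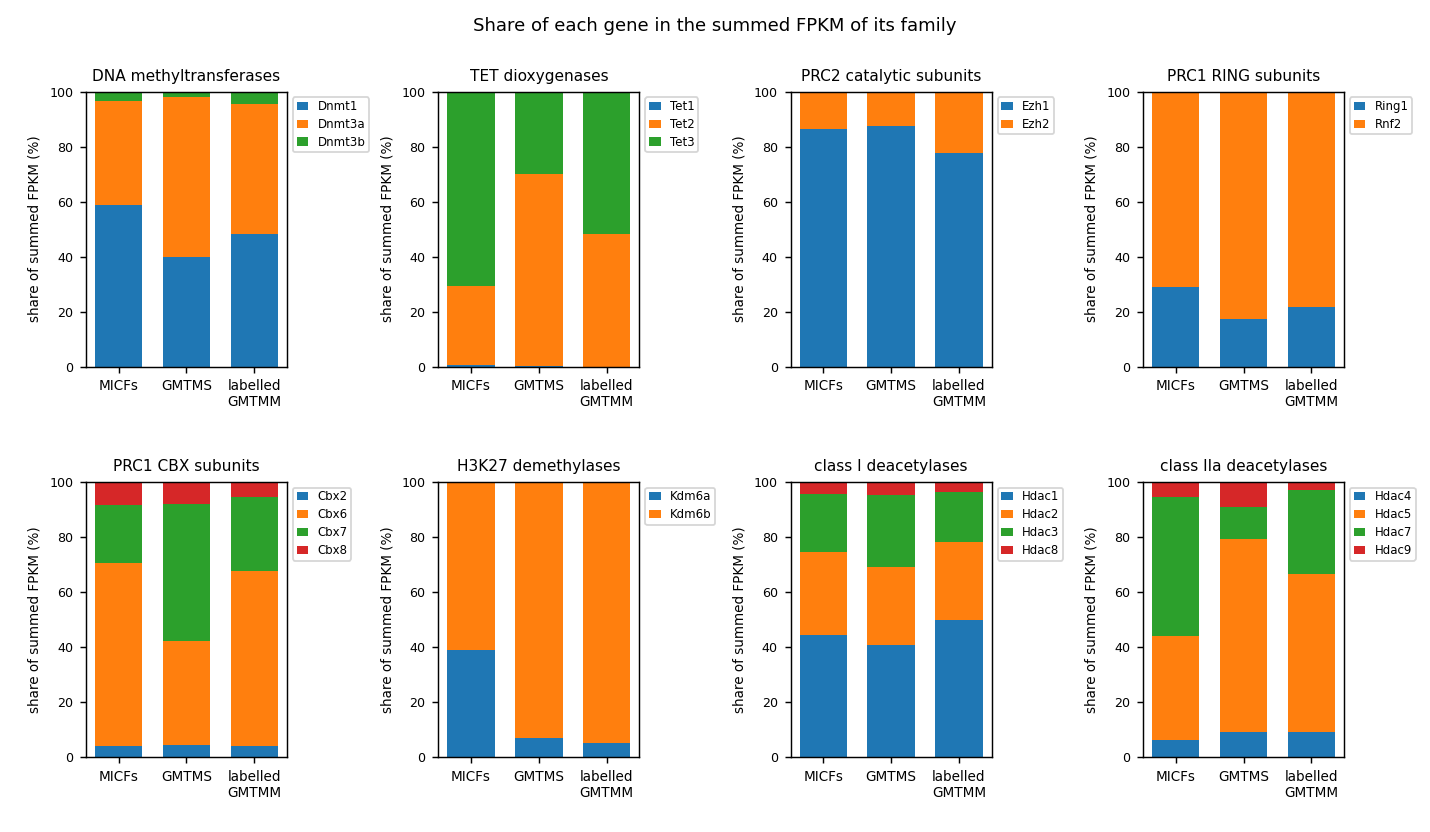
Share (vertical, %) of each gene in the summed deposited FPKM of the genes shown for its family, for 8 families in the 3 libraries. Kdm6b takes 60.9% of its pair in MICFs and 93.0% and 94.8% in the others, Tet2 and Hdac5 lead their families in GMTMS-iCMs but not in MICFs, and Ezh1 leads Ezh2 in all 3.

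NuRD, the largest group, was expressed at every subunit and had 0 of 11 members past 1 in any of the 3 comparisons. The shares of all genes were between 4.69% and 11.5% in each direction, and at such shares a count of 0 among 11 genes says little. By 1.5-fold, 1 of 11 was higher in GMTMS-iCMs than in MICFs, against 25.2% of all genes, and that gene was Chd4 (ENSMUSG00000063870, chromosome 6 from 125095981 to 125130591), the main remodelling ATPase. It had 4724, 5404 and 4174 counts, or 40.9, 72.6 and 44.6 FPKM, and was 1.77-fold higher in GMTMS-iCMs than in MICFs (1.70 to 1.84) and 1.63-fold higher than in the library labelled GMTMM (1.56 to 1.70). After quantile normalization its difference from MICFs was 0.28. Chd3, the alternative ATPase, had 23.1, 24.98 and 20.1 FPKM, and Chd4 made up 63.9%, 74.4% and 68.9% of the pair. The ratio of Chd4 to Chd3 was 1.64 times as high in GMTMS-iCMs as in MICFs (1.53 to 1.76).

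The other 10 subunits, among them the MTA scaffolds and the MBD proteins, lay within 1.5-fold in all 3 comparisons. Mta2 had 33.2, 37.7 and 28.8 FPKM, Mta1 18.7, 15.3 and 22.0, and Mta3 5.89, 5.67 and 5.18. Mta2 led Mta1 and Mta3 in every library, and the ratio of Mta2 to Mta1 was 1.38 times as high in GMTMS-iCMs as in MICFs (1.21 to 1.59) and 1.88 times as high as in the library labelled GMTMM (1.63 to 2.16). Mbd3, which sets apart the form of NuRD best known in reprogramming, had 30.8, 24.2 and 27.9 FPKM and was 1.27-fold lower in GMTMS-iCMs than in MICFs (1.14 to 1.43). Mbd2, which binds methylated CpG, had 29.0, 36.6 and 38.2 FPKM. Mbd3 held 51.5% of the pair in MICFs (49.3 to 53.6), where no order of the 2 genes was detectable. It held 39.7% and 42.2% in the other libraries. The ratio of Mbd2 to Mbd3 was 1.61 times that of MICFs in GMTMS-iCMs (1.40 to 1.85) and 1.45 times in the library labelled GMTMM (1.28 to 1.65). Gatad2a had 11.9, 15.2 and 14.0 FPKM and Gatad2b 4.82, 5.00 and 4.32. The histone-binding subunits Rbbp4, with 10.6, 12.7 and 12.4 FPKM, and the X-linked Rbbp7, with 23.6, 22.7 and 32.5 FPKM, are shared with PRC2. Rbbp7 in the library labelled GMTMM was 1.38-fold above MICFs (1.26 to 1.5). Gm6382 holds 15.1% of its words, and other genes cover 18.0% of the exon bases of Rbbp4. Of the genes tied to NuRD outside the 43, Cdk2ap1 had 12.7, 4.87 and 10.5 FPKM and was 2.62-fold lower in GMTMS-iCMs than in MICFs. Of the SALL family, Sall1 had 62, 0 and 35 counts, Sall3 0 in all 3 and Sall2 191, 10 and 22, so that Sall4 was the only SALL gene above 10 counts in GMTMS-iCMs.

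None of the 3 SWI/SNF members was past 1 in any comparison, and with shares of all genes between 4.69% and 11.5% in each direction a count over 3 genes says little. The ATPase genes Smarca4 (also called BRG1) and Smarca2 (BRM) had 19.3, 21.4 and 17.0 FPKM and 7.12, 5.41 and 7.87 FPKM. Smarca2 was 1.32-fold lower in GMTMS-iCMs than in MICFs (1.20 to 1.44), and the ratio of Smarca4 to Smarca2 was 1.46 times as high (1.30 to 1.64). Smarcd3, known as the cardiac BAF60 subunit, had 97, 84 and 129 counts, or 1.32, 1.77 and 2.16 FPKM. Its ratio between GMTMS-iCMs and MICFs had an interval that includes 1 (0.990 to 1.82), and it was 1.64-fold higher in the library labelled GMTMM (1.25 to 2.15). Its counts are uncertain, since Chpf2, on the other strand, covers 48.2% of its exon bases. Of 18 other SWI/SNF genes with a mean of at least 1 FPKM, 0 were past 1 in any of the 3 comparisons, and in GMTMS-iCMs against MICFs 0 were past 1.5-fold, where 25.2% of all genes were higher and 23.9% lower.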

How the data were processed

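RNA-seq of 3 mouse libraries, 1 per condition, was used. The authors deposited raw counts per gene, and their processing notes name HISAT2 2.0.5 and the mm9 assembly. The counting tool and its use of strand are not given in the sources used here. The gene coordinates, however, are those of GRCm38: 54495 of 54532 gene IDs were found in GENCODE M21, 53585 with the same coordinates. The FPKM that the authors deposited equal the counts divided by gene length and by a library size made with DESeq2 size factors (1.26, 0.811 and 1.02) in place of the library totals (11861773, 10624118 and 11904484 counts for MICFs, GMTMS and GMTMM).

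The count column of the fibroblasts carries an abbreviation and was matched to MICFs because the other columns name the cocktails. FPKM were quantile-normalized over the 3 libraries with ties averaged, and log2 was taken after adding 1. Differences over 1 and ratios of at least 1.5-fold were counted over genes with a mean of at least 1 FPKM (12406 genes, 37 of 43 members), with Clopper-Pearson 95% intervals and a floor of 3 counts. Every member is named. Of each other list, the genes with the largest and smallest difference between GMTMS-iCMs and MICFs could be named. Kdm6a, Pcgf1, Pcgf2, Pcgf5, Pcgf6, Mtf2, Epop, the SALL genes and the Y-linked genes were named after their values were seen. So were the families whose shares are given. One gene of the lists of other genes is not reported here and enters no count of them. The members and lists were chosen with earlier results of these data known.

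Alternatives were other orders of log2 and quantile normalization or none, a pseudocount of 0.1, edgeR TMM (prior count 2), DESeq2 size factors, library totals, thinned counts, protein-coding genes, other filters and a limit of 2-fold, and, chosen after seeing the data, quantile normalization without the library labelled GMTMM and centring on the median of all genes. A count of members was taken as moved when it changed by over 1.5 times. Overlaps with other genes were measured on GENCODE M21 as shared exon bases and as words of 50 bases taken from the longest transcript. The steps were tested on simulated data. Scaling used edgeR 4.0.16 and DESeq2 1.42.0 in R 4.3.3, and all else ran in Python 3.11.15 with SciPy 1.17.1 for intervals, pandas 2.3.3, numpy 2.4.6 and, for figures, matplotlib 3.10.9.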

Additional observations from a re-analysis of the deposited data

How the results depend on the processing

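No paired analysis was possible because each group has 1 library, and no replicate could be left out for the same reason. Of 135 values of the 15 counts and medians under the alternatives, 101 stayed within the limits set and 34 moved, and of 903 values of single members 624 stayed and 279 moved. The sign changed in 8 of 31 values of the medians and in 75 of the 903 values of single members, but in 0 of the 56 values of members past 1. Percentages in parentheses are the shares of all genes under the same setting. For GMTMS-iCMs against MICFs, library totals gave 3 members higher (15.0%) and 13 lower (42.5%) by 1.5-fold and a median difference of -0.37, against -0.39 for all genes, and thinned counts gave the same 2 medians. A limit of 2-fold gave 3 higher (16.0%), and no filter on low values 6 lower by 1.5-fold (15.0%). For the library labelled GMTMM against MICFs, library totals gave 3 higher (14.2%) and 9 lower (30.8%) by 1.5-fold, 3 lower by over 1 (10.6%) and a median of -0.29, and thinned counts gave 3 lower by over 1 (10.7%) and a median of -0.29, with -0.24 for all genes under both. There, a limit of 2-fold gave 2 higher (12.6%) and 0 lower (7.69%), a mean of at least 5 FPKM 3 higher (23.7%), quantile-normalized FPKM 5 lower (22.2%) and no filter 6 lower (12.7%) by 1.5-fold, DESeq2 size factors 2 higher by over 1 (12%) and a pseudocount of 0.1 gave 1 lower by over 1 (8.40%). The median turned to 0.0011 without quantile normalization and 0.0013 with DESeq2 size factors. Between the transduced libraries, a pseudocount of 0.1 (12%), TMM (10.1%) and DESeq2 size factors (11.5%) each gave 3 higher by over 1, and library totals (6.09%) and thinned counts (6.19%) 2. Library totals gave 3 higher (17.9%) and 9 lower (26.3%) by 1.5-fold there, a limit of 2-fold 3 higher (11.9%), no filter 6 lower (13.9%), and TMM (23.0%) or centring on the median of all genes (23.2%) 5 lower. The median there turned from 0.18 to -0.036 by library totals and -0.068 by thinned counts, with -0.089 and -0.091 for all genes. The share of members was below that of all genes in 82 of 84 counts under alternatives with a filter on low values, the exceptions being quantile-normalized FPKM (9 higher in GMTMS-iCMs than in MICFs, 23.0%) and a mean of at least 5 FPKM (3 lower with GMTMM set against MICFs, 9.96%), and in 1 of 6 by 1.5-fold without a filter, where all genes include those with 0 counts. These counts share the same members and libraries and are not independent of each other. Library totals lower every log2 ratio by construction. The causes of the other moves were not tested. At these depths genes of a few counts, such as Tet1 and Dnmt3l, limit any comparison.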

Other observations

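Chromatin genes outside the 43 were taken from lists written from general knowledge, with earlier results of these data known. Of these genes, 94 had a mean of at least 1 FPKM. In GMTMS-iCMs against MICFs 6 of them were higher and 2 lower by over 1, against 11.5% and 10.5% of all genes. Their median difference was -0.04, and that of all genes was -0.05. In the library labelled GMTMM against MICFs 2 were higher and 2 lower, against 8.07% and 4.69% of all genes. The median there was -0.16, and that of all genes was -0.09. Of 10 genes for H3K9 methylation and the HP1 proteins that read it, 2 were higher and 4 lower by 1.5-fold in GMTMS-iCMs. The shares of all genes were 25.2% and 23.9%, and the median of the 10 was -0.57. The highest was the methyltransferase gene Setdb2, with 2.16, 4.74 and 2.54 FPKM in MICFs, in GMTMS-iCMs and, last, in the library labelled GMTMM. The lowest was Cbx5, which encodes HP1 alpha, with 6.79, 3.18 and 4.53 FPKM.

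Of 14 trithorax and H3K4 methyltransferase genes, 2 were higher and 0 lower by 1.5-fold in GMTMS-iCMs against MICFs, beside 25.2% and 23.9% of all genes. In the library labelled GMTMM 0 were higher and 5 lower, beside 22.1% and 17.7%. Kmt2e had 10.4, 7.30 and 5.30 FPKM, and Smyd3, a lysine methyltransferase, had 0.840, 1.76 and 1.13 FPKM. Of 7 cyclin-dependent kinase inhibitors, common targets of Polycomb repression, 1 was higher by 1.5-fold in GMTMS-iCMs than in MICFs, against 25.2% of all genes. Another 3 were lower, against 23.9%, and the median difference was -0.29. Cdkn2a, the best known of these targets, had 10.9, 9.19 and 15.1 FPKM. Cdkn1a had the largest rise of the 7, with 68.1, 169 and 138 FPKM, and Cdkn1b the largest fall, a difference of -0.98. The proliferation gene Mki67 stood apart from its list, with 4.59, 33.9 and 12.2 FPKM, while Cdc20 had 4.87, 1.21 and 4.08 FPKM.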
